A study of Mus musculus with 102 samples.

Results

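The loci of Pou5f1, Nanog, Sox2 and Klf4, 4 genes of the core pluripotency network of mouse embryonic stem (ES) cells, were described in chromatin immunoprecipitation sequencing (ChIP-seq) tables on the mm9 genome. Members were the deposited peaks and regions lying wholly inside chr17:35620000-35665000 for Pou5f1, chr6:122590000-122690000 for Nanog, chr3:34540000-34670000 for Sox2 and chr4:55470000-55560000 for Klf4. These windows held 58 of the 67697 regions with H3K4me1 or H3K4me3 that were tabulated in 129/Ola ES cells. They also held 140 of the 170107 histone H3 lysine 4 (H3K4) methylation peaks tabulated in R1 ES cells, namely 61 of 82053 H3K4me1 peaks, 45 of 53501 H3K4me2 peaks and 34 of 34553 H3K4me3 peaks.

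The study profiled chromatin proteins at sites with H3K4me1 and the dependence of such sites on the enzymes MLL3 and MLL4. R1 ES cells of the 129SV strain, grown on mouse embryonic fibroblast feeder cells in serum-free medium with leukemia inhibitory factor, were either wild-type or MLL3/4 double catalytic dead, that is, with catalytically inactive MLL3 and MLL4. Each of the 3 marks had 2 libraries per R1 line, and the tables give 1 fold enrichment per peak and line. The sources used here do not say whether the catalytic-dead line is 1 clone. The 129/Ola ES cells carried no stated genotype, were grown on feeders and then passaged without them, and were profiled for H3K4me1, H3K4me3, H3K27ac and 17 chromatin factors, with 1 deposited log2 enrichment per factor and region. Double-knockout cells, their floxed parental cells and the BRG1, DPF2 and H3K27ac libraries of R1 cells were not analysed here. Since each value stands alone, no spread between libraries and no sequencing depth was known, and every difference below is a difference between deposited values without a replicate check.

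Pou5f1 (also called Oct4), Sox2, Nanog and Klf4 encode transcription factors that keep ES cells undifferentiated and that bind the regulatory elements of one another's genes. In ES cells Sox2 is known to depend on a cluster of enhancers far downstream of the gene, the Sox2 distal control region, and Pou5f1 and Nanog on enhancers close upstream. MLL3 and MLL4 place H3K4me1 at enhancers, other enzymes of the family place H3K4me3 at promoters, H3K4me2 is found at both, and acetylation of H3 lysine 27 (H3K27ac) marks active elements. Mediator links enhancers to RNA polymerase II, cohesin holds distant DNA together, and remodellers of the BAF and ISWI families move nucleosomes.

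The promoters of the 4 genes are shown because each lies in a window with 1 strong H3K4me3 region, and their base composition differs widely. Each sequence is from RefSeq (GRCm38.p6), runs from 250 bases before to 50 bases after the annotated start site and is printed on the strand of the gene. Capitals mark matches on either strand to ATGCAAA (the core of the octamer read by POU factors such as the Pou5f1 protein), CATTGT (a core read by SOX factors), CCACCC (the core of the CACCC box read by KLF factors) and GGGCGG (the GC box of SP and KLF factors).
Pou5f1: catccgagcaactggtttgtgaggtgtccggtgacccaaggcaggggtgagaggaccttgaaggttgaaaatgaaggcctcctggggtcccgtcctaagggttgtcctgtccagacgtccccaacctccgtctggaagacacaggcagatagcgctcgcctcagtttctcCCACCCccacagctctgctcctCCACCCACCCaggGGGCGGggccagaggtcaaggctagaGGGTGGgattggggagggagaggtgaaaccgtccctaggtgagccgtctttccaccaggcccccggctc
Nanog: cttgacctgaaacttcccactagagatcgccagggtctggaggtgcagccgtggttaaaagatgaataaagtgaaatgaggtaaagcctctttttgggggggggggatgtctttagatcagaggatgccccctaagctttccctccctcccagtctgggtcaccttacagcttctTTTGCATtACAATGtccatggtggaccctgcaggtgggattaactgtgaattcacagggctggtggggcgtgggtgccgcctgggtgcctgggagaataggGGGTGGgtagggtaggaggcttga
Sox2: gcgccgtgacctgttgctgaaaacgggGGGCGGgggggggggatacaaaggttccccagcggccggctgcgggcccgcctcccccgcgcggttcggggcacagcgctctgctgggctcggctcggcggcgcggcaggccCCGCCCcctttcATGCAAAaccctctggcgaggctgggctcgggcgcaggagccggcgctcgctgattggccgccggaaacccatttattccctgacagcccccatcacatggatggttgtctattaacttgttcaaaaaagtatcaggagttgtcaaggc
Klf4: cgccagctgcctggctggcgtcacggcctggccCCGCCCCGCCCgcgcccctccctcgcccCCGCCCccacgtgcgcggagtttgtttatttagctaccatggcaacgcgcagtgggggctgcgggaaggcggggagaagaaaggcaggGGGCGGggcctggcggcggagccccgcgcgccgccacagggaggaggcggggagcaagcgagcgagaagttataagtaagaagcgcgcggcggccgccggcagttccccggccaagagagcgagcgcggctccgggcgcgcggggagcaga

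These promoters lie on GRCm38.p6 at chr17:35505782-35506081 (plus strand), chr6:122707239-122707538 (plus), chr3:34649745-34650044 (plus) and chr4:55532426-55532725 (minus), positions that cannot be set beside the mm9 positions used elsewhere. The table held 2 start sites each for Pou5f1 and Nanog, of which the outermost was taken, and 1 each for Sox2 and Klf4. GC content was 62.7% at Pou5f1, 54.3% at Nanog, 66.3% at Sox2 and 74.3% at Klf4, with 11, 4, 27 and 40 CpG dinucleotides, against medians of 52.7% and 7 over the 32851 promoters of the table. Nanog was thus the promoter poorest in CpG and Klf4 the richest. The Nanog promoter held the POU and SOX letters 1 base apart, 75 to 62 bases before the start site, a pair of motifs found together at any spacing in 0.813% of the promoters. Sox2 had the POU letters and no SOX letters, while Pou5f1 and Klf4 had neither. POU letters occurred in 4.63% of all promoters and SOX letters in 12.6%. CCACCC, found in 31.5% of promoters, occurred 4 times at Pou5f1 (2 of these matches overlap) and 1 time at Nanog. GGGCGG, found in 35.7%, occurred 1 time at Pou5f1, 2 times at Sox2 and 4 times at Klf4 (2 of these overlap). A match is a description of letters, and no binding of these factors was measured.

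In each window exactly 1 region of 129/Ola cells carried H3K4me3 without H3K4me1. From general knowledge this region lies over the gene (no mm9 annotation was used here), and it is called the promoter region of the gene. Distances are from its centre and are negative upstream on the RefSeq strand of the gene. Regions with H3K4me1 and no H3K4me3 numbered 46. The authors' lists placed 18 of them among the active enhancers (H3K27ac at a log2 enrichment of 1 or more) and 18 among the poised ones, while 10 were on neither list. Of these 10, 4 had H3K27ac listed, at 1.06 to 2.09, so this limit alone does not define the active list. Over the table, 87.3% of the unlisted regions had no listed factor, against 0.344% of active and 0.153% of poised enhancers. Factor counts at listed enhancers are therefore not independent of the lists. A further 8 regions carried both marks. A factor is not listed below a log2 enrichment of 0.585 (1.5-fold). Fold enrichments of R1 peaks are quoted in pairs, wild-type cells first and catalytic-dead cells second, and a peak is called lower or higher when the values differ at least 2-fold.

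The 4 windows differed in the balance of active and poised enhancers. Pou5f1 had 5 active and 0 poised enhancers, Nanog had 8 and 5, Sox2 had 3 and 10, and Klf4 had 2 and 3. Active enhancers were thus 100.0% of the listed ones at Pou5f1, 61.5% at Nanog, 23.1% at Sox2 and 40.0% at Klf4, against 39.0% over the whole table. H3K27ac was listed at all 11 regions of Pou5f1, at 11 of 16 at Nanog, 9 of 23 at Sox2 and 6 of 8 at Klf4. Over the 58 regions its share was 63.8%, near the 62.6% of the table. Its log2 enrichment at the 18 active enhancers had a median of 1.97 against 1.34 over all active enhancers.

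In catalytic-dead cells, H3K4me1 and H3K4me2 were lower at many peaks away from the promoter regions, for H3K4me1 about as often as over the table. H3K4me1 was higher at 3 of the 6 peaks on promoter regions, at Sox2 and Klf4, and H3K4me3 mostly differed less than 2-fold. H3K4me1 was called lower at 18 and higher at 3 of the 61 peaks, 29.5% and 4.92%, where 28.4% and 15.2% of all peaks of the table were called. H3K4me2 was called lower at 19 of 45 peaks (42.2%, 23.0% in the table) and higher at 0 (1.91% in the table). For H3K4me3, 2 of 34 peaks were called lower (5.88%, 4.48% in the table) and 0 higher (3.15% in the table). After quantile normalization of the 2 lines, 2 H3K4me2 peaks were lower (4.44%, 5.42% over the table) and 1 higher, so the excess over the table depends on the scaling. For H3K4me1, median centring or quantile normalization each gave 12 peaks lower (19.7%) and 6 higher. Over the table, centring gave 23.3% lower and 22.9% higher, and quantile normalization 16.7% and 21.4%. The unscaled share for H3K4me1 lower and that for H3K4me3 lower were near their backgrounds, and the H3K4me2 share was above its own. Median log2 ratios were -0.58, -0.70 and -0.28 for the 3 marks, against -0.21, -0.13 and -0.03 over the tables.

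The authors' distal and proximal groups separate these changes. Of the 51 distal H3K4me1 peaks, 17 were lower (33.3%, 37.7% in the table) and 0 higher (5.66% in the table), with a median log2 ratio of -0.85 against -0.65. Of the 10 proximal ones, 1 was lower (6.79% in the table) and 3 were higher (37.3% in the table), with a median of 0.75 against 0.84. For H3K4me2, 17 of 35 distal peaks were lower (48.6%, 31.8% in the table) and 0 higher (2.05% in the table), and 2 of 10 proximal ones were lower (5.91% in the table). At Klf4, 0 of 5 distal H3K4me2 peaks were lower. For H3K4me3, 2 of 27 distal peaks were lower (7.41%, 7.17% in the table) and 0 higher (5.04% in the table). The deposited group is not a statement on these genes' own promoters, since the H3K4me3 peaks over the promoter regions of Pou5f1 and Sox2 are grouped as distal and those of Nanog and Klf4 as proximal.

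**Figure D1:**
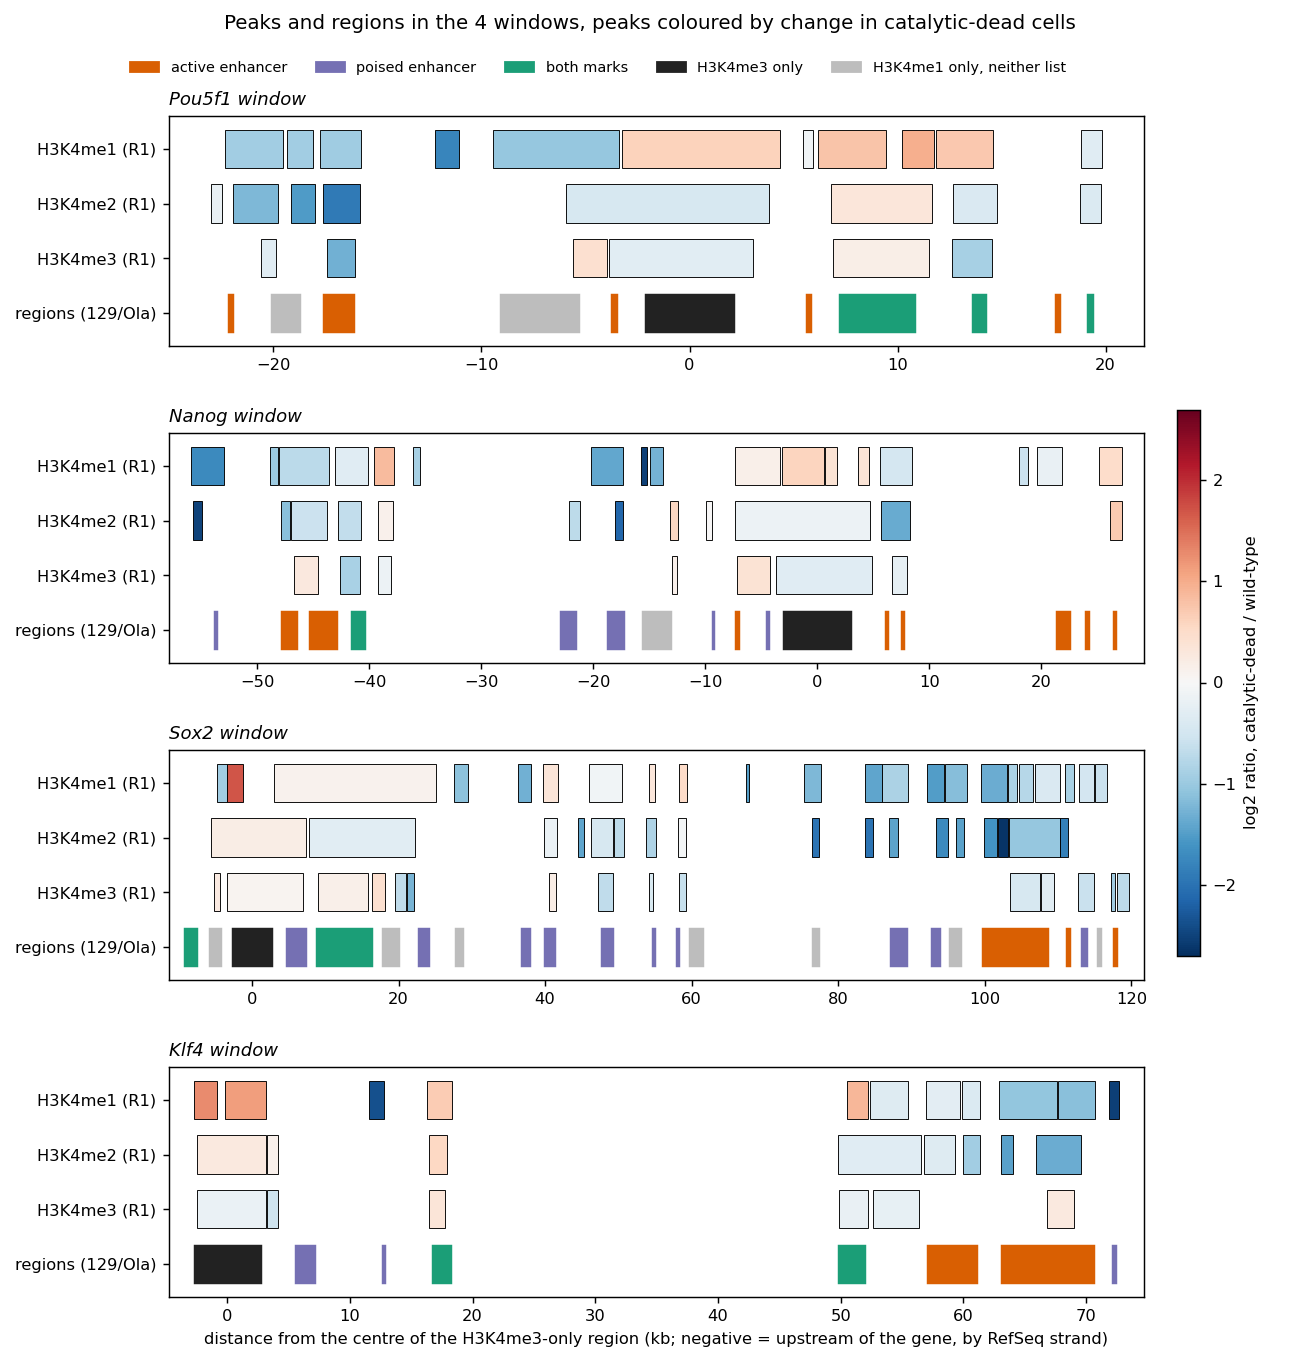
Position of every peak (upper 3 rows of each panel, R1 cells) and region (bottom row, 129/Ola cells) in the 4 windows, in kb from the centre of the promoter region. Peak colour gives the log2 ratio of catalytic-dead to wild-type fold enrichment (blue lower, red higher), and region colour gives the class, so that the blue distal ends of the Sox2, Nanog and Klf4 windows and the red H3K4me1 peaks at promoter regions can be seen.

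At the Pou5f1 promoter region, chr17:35642118-35646374 (4257 bp), H3K27ac had a log2 enrichment of 3.20 and 11 of 17 factors were listed. Among them were the Mediator subunits MED12 (0.96), SUR2 (0.81) and MED1 (0.75), the cohesin subunit SMC3 (1.0), the splicing factors SRSF1 (1.0) and SRSF2 (0.91) and SSRP1 (0.91), part of the chaperone complex FACT. H3K4me3 over it, at chr17:35640386-35647317, was 16.2 and 13.1 (log2 ratio -0.31). H3K4me2 at chr17:35638296-35648078 was 11.2 and 8.16 (log2 ratio -0.46), and H3K4me1 at chr17:35641016-35648584 was 2.75 and 4.26 (log2 ratio 0.63). H3K4me1 alone was above its wild-type value here, and none of the 3 reached 2-fold.

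The Nanog promoter region, chr6:122655681-122661816 (6136 bp), had an H3K27ac log2 enrichment of 2.13 and the fewest factors of the 4, SMC3 (1.18) and MED12 (0.80). Its H3K4me3 peak, chr6:122655072-122663633, was also the weakest, at 8.96 and 7.19 (log2 ratio -0.32). The H3K4me1 peaks over it were 2.42 and 3.65 (log2 ratio 0.59) at chr6:122655581-122659372 and 2.16 and 2.82 (log2 ratio 0.39) at chr6:122659480-122660489. A single H3K4me2 peak of the window, chr6:122651383-122663440, spanned the promoter region and its upstream flank and was 7.39 and 6.61 (log2 ratio -0.16). All 4 values lay within 2-fold between the lines.

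The Sox2 promoter region, chr3:34547396-34552841 (5446 bp), had the highest H3K27ac of the 4 promoter regions (3.28) and 7 factors, led by MED12 (1.45) and SMC3 (1.42). H3K4me3 at chr3:34546741-34557043 was 20.0 and 21.1 (log2 ratio 0.07) and H3K4me2 at chr3:34544531-34557458 was 10.6 and 12.3 (log2 ratio 0.21). H3K4me1 at chr3:34546780-34548837 was 1.68 and 5.41 (log2 ratio 1.69), the lowest wild-type H3K4me1 value and the highest ratio among the 61 H3K4me1 peaks of the 4 windows. The peak next to it upstream, chr3:34545408-34546714, was 4.06 and 2.13 (log2 ratio -0.93), and the long peak downstream, chr3:34553160-34575247, was 3.86 and 4.16 (log2 ratio 0.11), so the H3K4me1 increase covered 1 peak only.

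The Klf4 promoter region, chr4:55542238-55547722 (5485 bp), listed 14 of 17 factors, the most of the 58 regions, with an H3K27ac log2 enrichment of 1.96. SMC3 (1.33), MED1 (1.16), SSRP1 (1.14), SAP18 (1.11), a partner of histone deacetylase complexes, SNF2H (1.1), the ATPase of ISWI remodellers, MED12 (1.07) and the BAF subunit BAF155 (1.0) were at 1 or more. H3K4me1 was higher at both peaks there, 2.39 and 5.82 (log2 ratio 1.28) at chr4:55545807-55547726 and 2.61 and 5.75 (log2 ratio 1.14) at chr4:55541853-55545177. H3K4me2 at chr4:55541836-55547427 was 15.5 and 18.7 (log2 ratio 0.27) and H3K4me3 at chr4:55541821-55547404 was 21.1 and 18.7 (log2 ratio -0.17), the highest wild-type values of both marks in the 4 windows. A smaller H3K4me2 and H3K4me3 pair just downstream, on no region, was 3.29 and 3.63 (log2 ratio 0.14) at chr4:55540861-55541736 and 3.39 and 2.31 (log2 ratio -0.55) at chr4:55540820-55541766.

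Across the 4 promoter regions, all 6 overlapping H3K4me1 peaks were above their wild-type value and 3 were called higher. Over the whole table, 5884 of 10408 H3K4me1 peaks on H3K4me3-only regions were called higher. The 4 H3K4me3 peaks stayed between log2 ratios of -0.32 and 0.07. SMC3 and MED12 were listed at 4 of 4 promoter regions, against 54.3% and 35.9% of the 7453 H3K4me3-only regions. BAZ1A, BRG1 and WSTF were listed at 0 of 4, against 21.8%, 24.0% and 13.5% of H3K4me3-only regions in the table. Other members of remodelling complexes were listed, BAF155 at 2 (50.7% in the table), SNF2H at 1 (51.0%), RUVBL1 at 1 (61.0%) and RUVBL2 at 3 (81.7%). With 4 regions and such shares, 0 of 4 does not set these 3 factors apart.

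**Figure D2:**
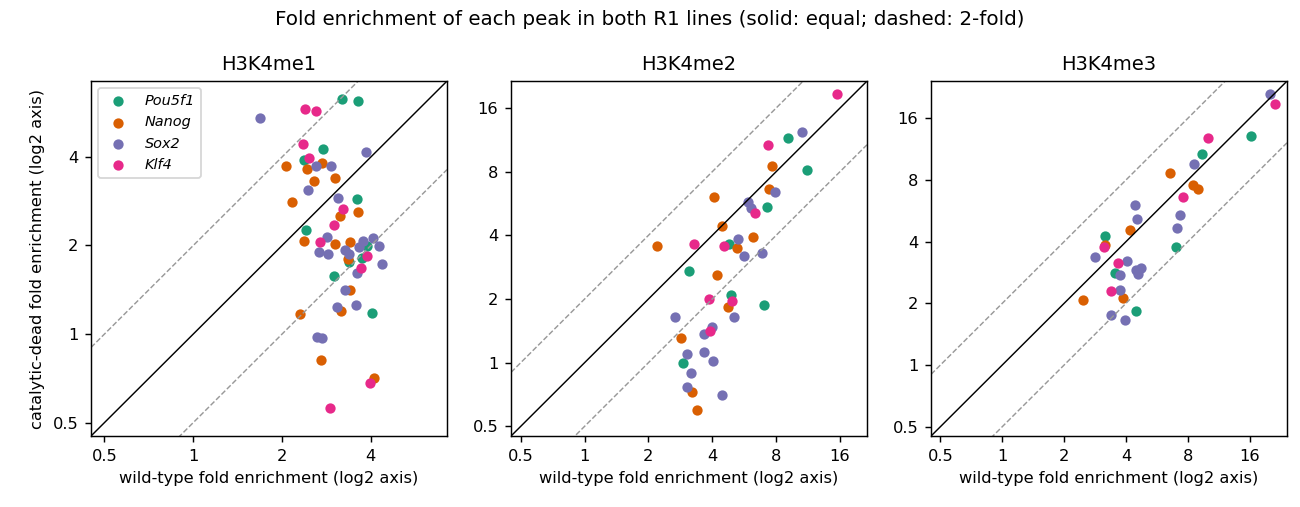
Fold enrichment of each of the 140 peaks in wild-type cells (horizontal) and catalytic-dead cells (vertical), both on log2 axes, coloured by locus. H3K4me2 and H3K4me3 above about 8 lie near the line of equal values, and the points under the lower dashed line are the 18, 19 and 2 peaks called lower.

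Upstream of Pou5f1, the farthest active enhancer, chr17:35622047-35622288 (242 bp), listed 13 factors, more than any other enhancer of the 4 windows. The highest were SAP18 (1.56), BRG1 (1.56), the ATPase of the BAF complex, SUR2 (1.54), MED12 (1.53) and SRSF1 (1.44), while H3K27ac was 1.86. H3K4me1 over it at chr17:35621909-35624695 was 3.36 and 1.75 (log2 ratio -0.94), just within 2-fold, and no H3K4me2 or H3K4me3 peak overlapped it. H3K4me2 beside it, at chr17:35622324-35624446, was lower at 4.89 and 2.1 (log2 ratio -1.22).

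The active enhancer chr17:35626647-35628139 had more H3K27ac (2.47) and only SNF2H (1.03) and SRSF2 (0.77). Here all 3 marks were below wild type. H3K4me1 at chr17:35626505-35628467 was 3.89 and 2.0 (log2 ratio -0.96), H3K4me2 at chr17:35626627-35628395 was 7.01 and 1.88 (log2 ratio -1.90) and H3K4me3 at chr17:35626827-35628179 was 4.49 and 1.84 (log2 ratio -1.29). The last is 1 of only 2 H3K4me3 peaks called lower at the 4 loci. Between these enhancers, the unlisted region chr17:35624147-35625544 had H3K27ac of 1.80 and no listed factor. H3K4me1 at chr17:35624904-35626149 was 3.0 and 1.57 (log2 ratio -0.94), H3K4me2 at chr17:35625072-35626224 was 2.91 and 1.0 (log2 ratio -1.54), and H3K4me3 at chr17:35623642-35624364 was 3.53 and 2.81 (log2 ratio -0.33). The farthest H3K4me2 peak of the window, on no region, was 3.12 and 2.72 (log2 ratio -0.19).

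Directly upstream of the promoter region, the active enhancer chr17:35640476-35640742 (267 bp) had the second highest H3K27ac of the 46 H3K4me1-only regions in the windows (3.28). It listed 6 factors, BRG1 (1.31), RUVBL1 (1.18), an ATPase of several remodelling complexes, SRSF1 (1.11), BAF155 (0.93), PHF5A (0.89), a splicing factor with a PHD fold, and SRSF2 (0.83), and no Mediator or cohesin subunit. H3K4me1 at chr17:35634805-35640850, which also spans the unlisted region chr17:35635130-35638918 (H3K27ac 2.09, no factor), was lower at 3.72 and 1.82 (log2 ratio -1.04). H3K4me3 on the latter region, at chr17:35638648-35640261, was 3.17 and 4.27 (log2 ratio 0.43). The peak with the lowest H3K4me1 ratio of the window, chr17:35632027-35633145, lay farther upstream on no region and was 4.04 and 1.18 (log2 ratio -1.78).

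Downstream of Pou5f1, H3K4me1 was above wild type over 2 of the 3 regions that carry both marks. The region with both marks chr17:35651449-35655104 listed 8 factors, led by SMC3 (1.28), and had H3K4me1 of 3.61 and 6.19 (log2 ratio 0.78) at chr17:35650422-35653699 and 3.18 and 6.3 (log2 ratio 0.98) at chr17:35654462-35656005. H3K4me2 there was 9.14 and 11.5 (log2 ratio 0.34) at chr17:35651069-35655896 and H3K4me3 9.4 and 10.7 (log2 ratio 0.18) at chr17:35651125-35655741. At chr17:35657835-35658495, again with both marks and 8 factors led by PHRF1 (1.39), H3K4me1 was 2.38 and 3.92 (log2 ratio 0.72), H3K4me2 7.21 and 5.45 (log2 ratio -0.41) and H3K4me3 7.03 and 3.77 (log2 ratio -0.90). The last such region, chr17:35663358-35663631, listed 8 factors led by SRSF1 (1.59), and H3K4me1 was 3.59 and 2.87 (log2 ratio -0.32) and H3K4me2 4.81 and 3.65 (log2 ratio -0.40). H3K27ac at the 3 regions was 1.69, 1.41 and 1.94. In RefSeq the next genes on this side are Tcf19 and Cchcr1, and the regions were not assigned to a gene. The active enhancer chr17:35649849-35650064 had RUVBL1 (0.90) and SMC3 (0.84), H3K27ac of 1.77 and H3K4me1 of 2.41 and 2.26 (log2 ratio -0.09). The active enhancer chr17:35661792-35662050 listed 8 factors, led by WSTF (1.51), with H3K27ac of 1.55, and had no R1 peak.

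**Figure D3:**
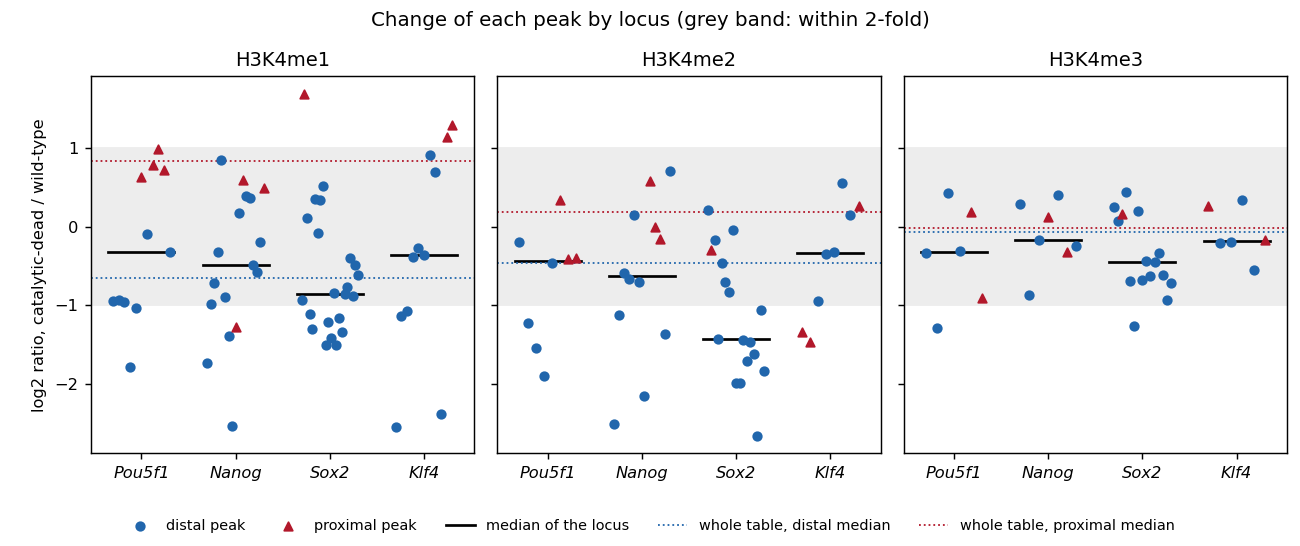
Log2 ratio of catalytic-dead to wild-type fold enrichment for every peak, by locus and mark, in genome order within a locus, with circles for distal and triangles for proximal peaks. The black bars are medians of the locus, the dotted lines medians of the whole table, and the grey band holds ratios within 2-fold. The Sox2 H3K4me2 peaks have the lowest median, -1.43.

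Near Nanog, the enhancers on both flanks of the gene kept H3K4me1 within 2-fold. The active enhancer with the highest H3K27ac of all 46 H3K4me1-only regions, chr6:122666242-122666490 (H3K27ac 3.33), lies downstream and listed 12 factors, with SMC3 (1.92), the highest factor value in the 58 regions, SRSF1 (1.42), RUVBL1 (1.31), SRSF2 (1.29) and the ISWI partner BAZ1A (1.2). Its neighbour chr6:122664812-122665040 (H3K27ac 2.46) listed 5 factors, led by SMC3 (1.3). One H3K4me1 peak, chr6:122664401-122667180, covers both and was 3.62 and 2.59 (log2 ratio -0.48), while H3K4me2 over both, at chr6:122664421-122667060, was lower at 4.73 and 1.84 (log2 ratio -1.36). H3K4me3, at chr6:122665423-122666812, was 2.47 and 2.08 (log2 ratio -0.25). After quantile normalization the H3K4me2 log2 ratio was -0.75, within 2-fold.

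Upstream of the Nanog promoter region, the active enhancer chr6:122651442-122651732 (H3K27ac 2.38) listed 9 factors, led by SRSF1 (1.32), SMC3 (1.19), SRSF2 (1.16) and SNF2H (1.09). The poised enhancer chr6:122654217-122654435 between it and the gene listed 3, WSTF (1.36), SNF2H (1.07) and SMC3 (0.88). H3K4me1 over both, at chr6:122651369-122655407, was 3.03 and 3.4 (log2 ratio 0.17), and H3K4me3 at chr6:122651618-122654556 was 6.53 and 8.62 (log2 ratio 0.40). A further poised enhancer, chr6:122649328-122649551, had SMC3 alone (0.77) and H3K4me2 of 4.45 and 4.45, with a log2 ratio of 0.00.

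Farther upstream of Nanog, 4 H3K4me1 peaks and 3 H3K4me2 peaks were called lower, and the others were within 2-fold. At the poised enhancer chr6:122639985-122641511, with SMC3 alone (0.72), H3K4me1 at chr6:122638530-122641445 was 3.16 and 1.2 (log2 ratio -1.39) and H3K4me2 at chr6:122640709-122641411 was 3.22 and 0.73 (log2 ratio -2.14). The unlisted region chr6:122643082-122645741 (H3K27ac 1.17, no factor) carried the lowest H3K4me1 ratio of the window, 4.1 and 0.708 (log2 ratio -2.53) at chr6:122643041-122643570, and a second lower peak, 3.4 and 1.41 (log2 ratio -1.27) at chr6:122643792-122645018. H3K4me2 at the other edge of that region, chr6:122645633-122646360, was above wild type at 4.08 and 6.09 (log2 ratio 0.58), and a small H3K4me3 peak within that H3K4me2 peak, on no region, was 4.16 and 4.54 (log2 ratio 0.13). At the poised enhancer chr6:122635780-122637232, with SRSF2 alone (0.84), H3K4me2 was 4.21 and 2.59 (log2 ratio -0.70). The farthest poised enhancer, chr6:122604884-122605136, listed 7 factors led by SSRP1 (1.4) and had H3K4me1 of 2.7 and 0.818 (log2 ratio -1.72) at chr6:122602872-122605749. An H3K4me2 peak under the same H3K4me1 peak but beside the region, chr6:122602982-122603854, was 3.38 and 0.598 (log2 ratio -2.50), the lowest H3K4me2 ratio of the window.

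A cluster with H3K27ac lay in the far upstream part of the Nanog window. The active enhancer chr6:122610852-122612323 (H3K27ac 2.02) had SRSF2 (0.84) and SMC3 (0.76), and chr6:122613356-122615890 (H3K27ac 2.18) had MED1 (0.71). H3K4me1 over both, at chr6:122610708-122615175, was 3.39 and 2.06 (log2 ratio -0.72). H3K4me2 was lower at chr6:122610871-122611645, 2.86 and 1.32 (log2 ratio -1.12), and within 2-fold at chr6:122611726-122614965, 5.23 and 3.48 (log2 ratio -0.59), and H3K4me3 at chr6:122612025-122614159 was 3.15 and 3.84 (log2 ratio 0.29). The region with both marks chr6:122617167-122618340 (H3K27ac 1.36) listed 4 factors at 0.81 or below, and H3K4me1 was 3.15 and 2.52 (log2 ratio -0.32), H3K4me2 6.23 and 3.94 (log2 ratio -0.66) and H3K4me3 3.86 and 2.12 (log2 ratio -0.87). Downstream of Nanog, the active enhancer chr6:122680054-122681302 (H3K27ac 1.06) had 3 factors and H3K4me1 of 2.37 and 2.07 (log2 ratio -0.19). The active enhancer chr6:122685136-122685429 (H3K27ac 1.77) had 7 factors, led by SUR2 (1.16), H3K4me1 of 2.72 and 3.82 (log2 ratio 0.49) and H3K4me2 of 2.21 and 3.58 (log2 ratio 0.70). The active enhancer chr6:122682646-122683067 (H3K27ac 1.61), with 3 factors, had no R1 peak.

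The Sox2 window had the most H3K4me2 peaks called lower, 10 of 17 (58.8%, 23.0% in the table). Of its 22 H3K4me1 peaks, 8 were lower (36.4%, 28.4% in the table). Among distal peaks the shares were 62.5% for H3K4me2 (31.8% in the table) and 38.1% for H3K4me1, near the 37.7% in the table. The largest region of the 4 windows, chr3:34649738-34658702 (8965 bp), lies about where the distal control region is known to be, far downstream of the gene, and was 1 of 3 active enhancers of the window. It had H3K27ac of 2.18 and 4 factors, MED12 (1.52), MED1 (0.87), SMC3 (0.83) and SRSF2 (0.64). MED12 there was slightly above its value at the Sox2 promoter region (1.45).

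Over that region H3K4me1 was 4.36 and 1.73 (log2 ratio -1.34) at chr3:34649636-34653152, the highest wild-type H3K4me1 value in the 4 windows and called lower. The other 3 H3K4me1 peaks on it were 3.75 and 2.07 (log2 ratio -0.85), 3.26 and 1.93 (log2 ratio -0.76) and 2.83 and 2.14 (log2 ratio -0.40), so the ratio was nearer to 0 from one end of the region to the other. H3K4me2 was lower at all 3 peaks on it, 5.05 and 1.64 (log2 ratio -1.62) at chr3:34650006-34651804, 4.43 and 0.703 (log2 ratio -2.66) at chr3:34651937-34653217 and 6.85 and 3.3 (log2 ratio -1.05) at chr3:34653388-34660337. The middle one has the lowest H3K4me2 ratio of the 45 peaks. H3K4me3 was present too, 7.34 and 5.38 (log2 ratio -0.45) at chr3:34653526-34657595 and 4.05 and 3.21 (log2 ratio -0.33) at chr3:34657792-34659557, although the region carries no H3K4me3 in the 129/Ola table.

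Beyond it, the active enhancer chr3:34661244-34661776 (H3K27ac 1.92) listed BRG1 alone (0.64), with H3K4me1 of 3.64 and 1.98 (log2 ratio -0.88) and H3K4me2 of 3.19 and 0.893 (log2 ratio -1.84). At the poised enhancer chr3:34663225-34664002, with SRSF2 (0.84), MED12 (0.81) and SMC3 (0.81), H3K4me1 was 2.68 and 1.9 (log2 ratio -0.49) and H3K4me3 7.07 and 4.64 (log2 ratio -0.61). The last active enhancer, chr3:34667631-34668150 (H3K27ac 1.07), listed SNF2H (0.73), RUVBL2 (0.72), the partner of RUVBL1, and BRG1 (0.68), and H3K4me3 was 3.37 and 1.76 (log2 ratio -0.94) and 4.56 and 2.78 (log2 ratio -0.71). Further peaks here cross the window edge and are not members. H3K4me2 at chr3:34662833-34670561, over both of these enhancers, was lower at 5.57 and 2.68 (log2 ratio -1.06). H3K4me1 at chr3:34666892-34671054, over the last active enhancer, was 3.66 and 2.29 (log2 ratio -0.68).

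On the near side of the same stretch, the poised enhancer chr3:34642832-34644027, with SMC3 alone (0.61), had H3K4me1 of 3.56 and 1.26 (log2 ratio -1.50) and H3K4me2 of 3.67 and 1.12 (log2 ratio -1.71). The poised enhancer chr3:34637151-34639463, with SRSF2 alone (0.83) and H3K27ac of 0.73, had H3K4me1 of 3.36 and 1.87 (log2 ratio -0.85) and H3K4me2 of 4.01 and 1.48 (log2 ratio -1.44). H3K4me2 was thus lower at both. The stretch from 60 kb downstream to the end of the window was set after the values were seen. There all 13 H3K4me1 peaks had log2 ratios below 0 (-1.50 to -0.40, 6 called lower). All 9 H3K4me2 peaks were called lower (-2.66 to -1.05), and all 5 H3K4me3 peaks were below 0 (-0.94 to -0.33, 0 called). Over the tables, 37.7%, 31.8% and 7.17% of distal peaks of the 3 marks were called lower. In the catalytic-dead cells the median fold enrichment over this stretch was 1.87 for H3K4me1 and 1.11 for H3K4me2, against 3.26 and 4.01 in wild-type cells. On quantile-normalized values, 12 of the 13 H3K4me1 peaks were still below 0 (3 called lower), as were 8 of the 9 H3K4me2 peaks (1 called lower, median log2 ratio -0.56).

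The limits of the next stretch, 40 to 60 kb downstream, were also set after the values were seen. There all 4 H3K4me1 peaks lay between log2 ratios of -0.09 and 0.51. Of 6 H3K4me2 peaks 1 was lower, and of 4 H3K4me3 peaks 0 were. Over the tables, 37.7%, 31.8% and 7.17% of distal peaks of the 3 marks were called lower. The limits leave out H3K4me1 peaks called lower nearer to the gene, which are given below. The 4 poised enhancers of that stretch had no H3K27ac listed. At chr3:34589958-34591520, with SNF2H (0.85), H3K4me1 was 2.93 and 3.73 (log2 ratio 0.35), H3K4me2 6.06 and 5.38 (log2 ratio -0.17) and H3K4me3 4.51 and 5.16 (log2 ratio 0.19). At chr3:34597704-34599389, with SUR2 (0.63), they were 3.08 and 2.9 (log2 ratio -0.09), 5.3 and 3.85 (log2 ratio -0.46) and 4.73 and 2.96 (log2 ratio -0.68). At chr3:34604766-34605165, with BRG1 (1.11) and SMC3 (0.79), they were 2.45 and 3.08 (log2 ratio 0.33), 5.65 and 3.18 (log2 ratio -0.83) and 3.74 and 2.76 (log2 ratio -0.44). At chr3:34607975-34608449, with MED1 (0.89), SMC3 (0.82) and SRSF2 (0.69), they were 2.61 and 3.72 (log2 ratio 0.51), 5.9 and 5.72 (log2 ratio -0.04) and 4.49 and 2.9 (log2 ratio -0.63). H3K4me3 thus lay below H3K4me1 in ratio at each of these 4 enhancers. Over the whole tables it did so in 20365 of the 27602 overlapping pairs whose H3K4me1 peak was within 2-fold, so this does not set the stretch apart. The lower H3K4me2 peak of the stretch, chr3:34594553-34595360, was on no region and was 3.67 and 1.37 (log2 ratio -1.43).

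Closer still, the poised enhancer chr3:34586763-34588023 (H3K27ac 0.61) listed SMC3 (1.0), PHF5A (0.99), SRSF1 (0.84) and SRSF2 (0.62), and its only peak was H3K4me1, lower at 3.06 and 1.24 (log2 ratio -1.30). H3K4me1 was lower too at chr3:34577633-34579650, on the unlisted region chr3:34577768-34578911, at 4.27 and 1.99 (log2 ratio -1.11). Over the first stretch downstream of the gene lay 1 long H3K4me1 peak, chr3:34553160-34575247, given above. It covers the poised enhancers chr3:34554828-34557442, with SMC3 (1.25), SRSF1 (0.71) and MED12 (0.70), and chr3:34572831-34574289, with SRSF2 (0.67). It also covers the region with both marks chr3:34558901-34566533 (H3K27ac 1.14), which listed 7 factors led by SAP18 (0.86) and had H3K4me2 of 7.93 and 6.45 (log2 ratio -0.30) and H3K4me3 of 8.55 and 9.53 (log2 ratio 0.16). Farther along, on the unlisted region chr3:34567923-34570162, H3K4me3 was 4.44 and 6.01 (log2 ratio 0.44) and 3.73 and 2.32 (log2 ratio -0.69). The Sox2 H3K4me3 peak called lower, chr3:34571280-34572167, was on no region and was 3.97 and 1.66 (log2 ratio -1.26). Upstream of the gene, the region with both marks chr3:34540804-34542608 (H3K27ac 0.87) listed 7 factors led by SNF2H (1.05). Its R1 peaks cross the window edge and are not members. At chr3:34544223-34545897, an unlisted region with no factor, H3K4me3 was 2.82 and 3.35 (log2 ratio 0.25).

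The Klf4 window had its elements in 2 groups, around the gene and about 50 to 72 kb downstream. The wide active enhancer chr4:55474339-55481941 (7603 bp, H3K27ac 1.61) listed MED12 alone (1.04) and had H3K4me1 of 3.87 and 1.85 (log2 ratio -1.07) at chr4:55477368-55482103 and 3.69 and 1.68 (log2 ratio -1.14) at chr4:55474276-55477245, both lower. H3K4me2 was lower at both peaks on it, 4.93 and 1.95 (log2 ratio -1.34) at chr4:55475377-55479069 and 3.89 and 1.41 (log2 ratio -1.46) at chr4:55480902-55481955, although the table groups them as proximal. H3K4me3 at chr4:55475938-55478172 was 3.12 and 3.75 (log2 ratio 0.27). The second active enhancer, chr4:55483907-55487940 (4034 bp), had more H3K27ac (2.15) and SMC3 alone (0.72), and every peak on it was within 2-fold. H3K4me1 there was 2.68 and 2.06 (log2 ratio -0.38) and 3.22 and 2.66 (log2 ratio -0.28), and H3K4me2 was 3.84 and 2.0 (log2 ratio -0.94) and 4.52 and 3.57 (log2 ratio -0.34). The calls on the first enhancer depend on the scaling. Median centring brought its H3K4me1 peaks within 2-fold (-0.86 and -0.93), and quantile normalization its H3K4me2 peaks (-0.78 and -0.52).

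The lowest H3K4me1 ratio of the 61 peaks, 3.97 and 0.682 (log2 ratio -2.54) at chr4:55472261-55473082, lay on the poised enhancer chr4:55472548-55472907, which listed SMC3 (1.07) and SRSF2 (0.73) and had H3K27ac of 0.78. Nearly as low was 2.91 and 0.56 (log2 ratio -2.38) at chr4:55532203-55533385, on the poised enhancer chr4:55532098-55532343 between that cluster and the gene. It listed 5 factors, led by PHRF1 (1.56), a PHD and RING finger protein, SRSF2 (1.04) and MED12 (1.03). Neither poised enhancer had an H3K4me2 or H3K4me3 peak. The last poised enhancer, chr4:55537799-55539427, with SMC3 (1.18) and SRSF2 (0.62), had no R1 peak at all.

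The Klf4 regions with both marks went the other way in H3K4me1. The region chr4:55526745-55528330 (H3K27ac 1.56) listed 7 factors, led by SMC3 (1.36), and had H3K4me1 of 2.47 and 3.98 (log2 ratio 0.69), H3K4me2 of 7.31 and 10.7 (log2 ratio 0.55) and H3K4me3 of 10.1 and 12.7 (log2 ratio 0.34). The region chr4:55492994-55495178 (H3K27ac 2.07) listed SMC3 (1.02) and MED12 (0.87) and had H3K4me1 of 2.36 and 4.42 (log2 ratio 0.90), H3K4me2 of 6.36 and 5.08 (log2 ratio -0.32) and H3K4me3 of 7.59 and 6.63 (log2 ratio -0.19). H3K4me1 was above wild type at both without reaching 2-fold.

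Across the 4 windows the H3K4me1 differences were set out by the class of the region. Of the 19 H3K4me1 peaks on active enhancers, 17 were below their wild-type value and 4 were called lower (21.1%, against 36.8% of peaks on active enhancers over the table). Below wild type were 8647 of the 10445 peaks on all active enhancers. Of the 14 peaks on poised enhancers, 9 were below wild type and 6 were called lower (42.9%, 36.9% in the table). Below wild type were 9136 of the 12235 peaks on all poised enhancers. Of the 11 on unlisted H3K4me1-only regions, 6 were lower (54.5%, 39.1% in the table). Of the 8 on regions with both marks, 6 were above wild type and 0 were called. Of the 19466 such peaks in the table, only 4563 were below wild type, 4248 were called higher and 1019 lower. For H3K4me2, 9 of 15 peaks on active enhancers were lower (48.6% in the table) and 3 of 11 on poised ones (27.3%, 33.5% in the table). A peak that spans regions of several classes counts in each.

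Calls of H3K4me2 went along with those of H3K4me1 on the unscaled values. In 12 of 13 overlapping pairs whose H3K4me1 peak was called lower, H3K4me2 was called lower too (92.3%, 91.8% over the whole tables). In the 36 pairs whose H3K4me1 peak was within 2-fold, H3K4me2 was lower in 10 (27.8%, 14.6% over the whole tables). H3K4me2 had the more negative ratio in 31 of these 36 pairs, and in 32304 of the 38165 such pairs of the whole tables. All 4 pairs of a lower H3K4me1 peak with an H3K4me3 peak had H3K4me3 within 2-fold. Of the 1081 such pairs in the whole tables, 373 had H3K4me3 lower and 65 higher.

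The factors of 129/Ola cells were spread unevenly over the windows. The mean number listed per region was 6.0 at Pou5f1, 3.81 at Nanog, 2.17 at Sox2 and 4.25 at Klf4, and 3.64 over the 58 regions (SD 3.59 over regions) against 5.39 in the whole table. By class it was 2.74 at H3K4me1-only regions (3.27 in the table), 6.38 at regions with both marks (9.22) and 8.50 at promoter regions (7.81). Cohesin stood out from the other factors in the opposite sense, since SMC3 was listed at 31 of 58 regions (53.4%, 36.9% in the table), at 12 of 18 poised enhancers (66.7%, 29.6% in the table) and at 11 of 18 active ones (61.1%, 37.1% in the table). Only SMC3 and, narrowly, MED12 (24.1%, 24.0% in the table) were above the table's share over all regions. By class, SMC3 was below the table's share at regions with both marks (50.0%, 57.2% in the table). Of the 17 factors, 8 were above the table's share at active enhancers and 9 at promoter regions. At H3K4me1-only regions 3 were, and 2 each at poised enhancers and at regions with both marks.

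Below the table's share were SSRP1 of FACT (8.62%, 34.0% in the table), PHRF1 (12.1%, 36.6% in the table), SAP18 (20.7%, 42.1% in the table), the ISWI members SNF2H (22.4%, 39.8% in the table) and BAZ1A (8.62%, 22.8% in the table), and BRG1 (8.62%, 18.7% in the table). The Mediator subunit MED1 was closer to the table's share, at 17 regions (29.3%, 32.6% in the table). SUR2, also of Mediator, was about as far below it as BRG1, at 12 regions (20.7%, 31.4% in the table). Over all regions, Mediator as a whole was thus not set apart from the remodellers. These shares mix classes, as 46 of the 58 regions were H3K4me1-only, against 41819 of 67697 in the table. Among H3K4me1-only regions alone, BRG1 (10.9%, 12.8% in the table) and SUR2 (15.2%, 17.7%) were near the table's share. SSRP1 (6.52%, 20.5%), PHRF1 (8.7%, 23.0%), SAP18 (8.7%, 21.5%), SNF2H (17.4%, 25.5%) and BAZ1A (8.7%, 16.1%) were below it there too. BRG1 was listed at 2 Pou5f1 and 3 Sox2 regions and at none of Nanog or Klf4. SSRP1, listed at 3 Pou5f1 regions, 1 Nanog and 1 Klf4 region, was not listed in the Sox2 window. It was the only factor with 1 library, while 14 factors had 2 libraries and 2 had 3. WSTF was listed at 3 regions in all, at Pou5f1 and Nanog.

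Region width moved with these counts. The 8 active enhancers of up to 300 bp in the windows listed 7.75 factors on average (SD 3.62 over regions), the 6 wider than that and up to 2000 bp listed 2.33 (SD 0.82) and the 4 over 2000 bp listed 1.75 (SD 1.5). Over the whole table the 3 means were 6.20, 5.48 and 4.21. The wide elements of Sox2 and Klf4 are among those with few factors, and the part of width in the low counts there was not tested.

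**Figure D4:**
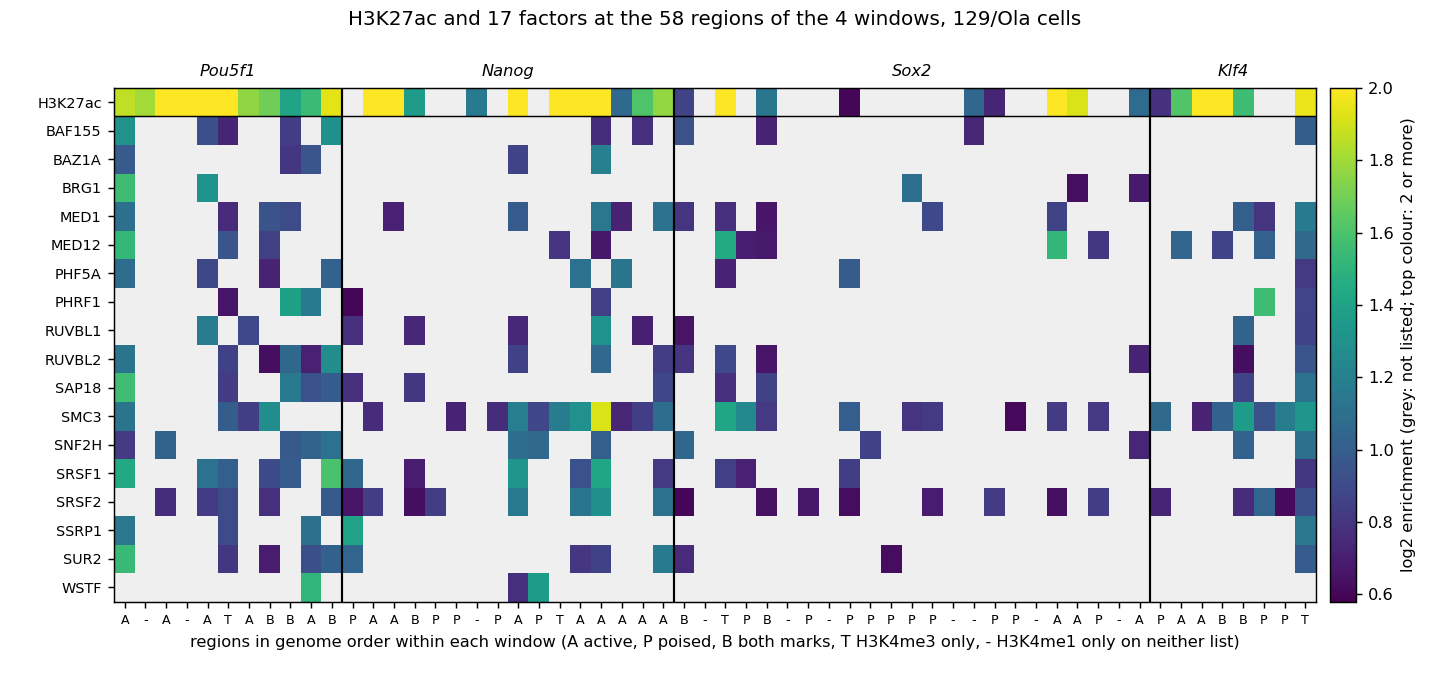
Log2 enrichment of H3K27ac (top row) and the 17 factors at each of the 58 regions in 129/Ola cells, with grey where no value is listed and the top colour for 2 or more. The fullest columns are the Klf4 promoter region with 14 factors and the short enhancers with 13 at Pou5f1 and 12 at Nanog, and the SMC3 row is the most filled, with 31 regions.

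The 129/Ola regions and the R1 peaks, which come from different ES lines, were compared by overlap of 1 bp or more. An H3K4me1 peak overlapped 52 of 58 regions (89.7%, 77.3% in the table), an H3K4me2 peak 45 (77.6%, 59.5% in the table) and an H3K4me3 peak 31 (53.4%, 41.4% in the table). With an overlap of 50% of the shorter interval required, the H3K4me3 share was 37.9%, below the 39.2% of the table. Of the 46 regions without H3K4me3 in 129/Ola cells, 20 overlapped an R1 H3K4me3 peak (43.5%, 16.2% in the table), 10 of them at Sox2. With the 50% overlap this count was 11 (23.9%, 13% in the table). Only 4 regions had no R1 peak of any mark, the 3 named above and the unlisted Sox2 region chr3:34609793-34611668.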

How the data were processed

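Per the submitters' processing notes the build was mm9, and the notes name Bowtie, Picard and MACS2 for the 129/Ola libraries and BWA 0.7.13-r1126, Picard 2.11.0 and MACS2 2.1.0.20150731 for the R1 libraries. The tools' settings, the joining of replicates and the reference of the enrichment are not given in the sources used. Per the file headers the peak tables hold a fold enrichment (FE, a ratio) for R1 wild-type and catalytic-dead cells, 1 value per peak and line, with a distal or proximal group. The region tables deposited by the authors hold a log2 enrichment per factor, and values below 0.585 are not listed. Of 31 names in them 20 were used, and 11 that match no 129/Ola library were not used.

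In the peak tables the positions run in text order of chromosomes and the values in number order, so values were put back in number order. On the 4 chromosomes used, the rank correlation (Spearman's rho, across peaks) between a peak's width and its wild-type value was 0.193 to 0.298 for H3K4me1, 0.665 to 0.681 for H3K4me2 and 0.651 to 0.705 for H3K4me3 after this, and -0.041 to 0.049 in the deposited layout. Restoring was tested on simulated tables. Log2 ratios divide the catalytic-dead value by the wild-type value, with no pseudocount. Calls are a ratio of 0.5 or below or of 2 or above, a rule of size that matched the authors' class of change with 0 exceptions, and not a test. Region starts had 1 added to be 1-based, and peak positions are printed as deposited. Overlaps of 1 bp or more were found with bedtools 2.31.1, and tables were handled with pandas 2.3.3 in Python 3.11.15. All regions on the active or poised list or with H3K4me3, all peaks on them and the highest and lowest ratio per window and mark were named by rule. The members and lists were chosen with earlier results of these data known. Labels do not say that replicates came from separate cultures.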

Additional observations from a re-analysis of the deposited data

How the results depend on the processing

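No replicate could be left out, since the tables hold 1 value per line. No paired analysis was possible because the deposited values carry no replicate numbers. With values in the deposited layout, which pairs positions with values of other peaks if the restored order is right, 5 H3K4me1, 2 H3K4me2 and 5 H3K4me3 peaks were higher. Lower in that layout were 13 H3K4me1, 13 H3K4me2 and 1 H3K4me3 peaks, where the restored order gave 18 for H3K4me1 and 19 for H3K4me2. In that layout 14 of the 30 named peaks with a call changed sign. For H3K4me1 these were 2 at Pou5f1 (log2 ratios 1.30 and 2.16), 2 at Nanog (0.14 and 0.29), 2 at Sox2 (0.32 and 0.23) and 2 at Klf4 (0.55 and -1.13). For H3K4me2 they were 2 at Sox2 (0.45 and 0.21), 2 at Klf4 (0.086 and 0.44) and 2 at Nanog (0.51 and 0.27). Quantile normalization left 2 H3K4me2 peaks lower and 1 higher, reversed the peak at chr6:122610871-122611645 (0.35; the cause was not tested) and gave 6 H3K4me1 peaks higher, as did median centring. A pseudocount of 1 left 6 H3K4me1 and 0 H3K4me3 peaks lower, by construction nearer to a ratio of 1. A 1.5-fold threshold gave 30 H3K4me1 peaks lower and 11 higher, 1 H3K4me2 peak higher and 10 H3K4me3 peaks lower. Without the lowest 25% of peaks, 6 H3K4me2 and 0 H3K4me3 peaks were lower. Without Sox2, 10 H3K4me1, 9 H3K4me2 and 1 H3K4me3 peaks were lower, without Pou5f1 1 H3K4me3 peak was, and without Klf4 1 H3K4me1 peak was higher. Peaks or regions that touch a window edge moved no count by more than 1.5 times. At a log2 enrichment of 1 or more the mean number of factors was 1.41 per region. Overlap of 50% of the shorter interval kept the 3 counts of regions with a peak within 1.5 times.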

Other observations

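A site far upstream of Nanog, on no region of the 129/Ola table, had a peak of each of the 3 marks in R1 cells. H3K4me3 at chr6:122619526-122620690 was 8.44 and 7.53 (log2 ratio -0.17), H3K4me2 at chr6:122619550-122620849 was 7.69 and 8.49 (log2 ratio 0.14) and H3K4me1 at chr6:122619187-122620996 was 2.06 and 3.71 (log2 ratio 0.85), the highest H3K4me1 ratio of the Nanog window. Its wild-type H3K4me3 and H3K4me2 values were near those of the Nanog promoter region (8.96 and 7.39).

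Other peaks on no region include H3K4me1 and H3K4me2 in the Sox2 window at chr3:34633754-34636042 and chr3:34633786-34634882, 2.62 and 0.981 (log2 ratio -1.42) and 4.04 and 1.02 (log2 ratio -1.99), and H3K4me1 at chr3:34617479-34617954, 2.72 and 0.967 (log2 ratio -1.50). Downstream of Klf4, H3K4me1 at chr4:55489523-55492596 was 3.0 and 2.35 (log2 ratio -0.36) and H3K4me3 at chr4:55488629-55492349 was 3.64 and 3.14 (log2 ratio -0.21). On unlisted Sox2 regions, H3K4me1 and H3K4me2 were 3.26 and 1.42 (log2 ratio -1.20) and 3.04 and 0.767 (log2 ratio -1.99) at chr3:34626591-34627435 (H3K27ac 1.06, BAF155 0.73), and 3.59 and 1.61 (log2 ratio -1.16) and 3.05 and 1.1 (log2 ratio -1.47) at chr3:34645278-34646796, which had no factor and no H3K27ac listed.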
